A study of Mus musculus with 16 samples.

Results

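The 36 odorant receptor genes of mouse chromosome 16 were followed in sorted cells of the olfactory mucosa. A gene was taken where its symbol is Olfr and a number and its probe set carries the chromosome 16 prefix, which gave 36 of the 1080 odorant receptors so named and of the 19505 genes measured. By gene order and by number they are 3 single genes (Olfr161, Olfr15 and Olfr19), a run of 8 from Olfr164 to Olfr171, and a run of 25 from Olfr172 to Olfr209. All 36 carry an older MOR family number of 100 or above, which marks class II receptors. In their older family names, 10 belong to MOR182, 8 to MOR184 and 7 to MOR183, all in the run of 25. Names with the pseudogene mark P or ps are among those listed for Olfr169, Olfr175, Olfr180, Olfr191, Olfr193, Olfr194 and Olfr205. Whether these genes are intact was not tested.

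Odorant receptors are G protein-coupled receptors in the cilia of olfactory sensory neurons. A mature neuron as a rule transcribes a single receptor allele, chosen from the many in the genome, and couples it through the olfactory G protein and adenylyl cyclase to a cyclic nucleotide-gated channel. The genes lie in clusters of tandem copies, with the coding region in a single exon, so neighbours are often close relatives. The level of a receptor transcript in a cell sample therefore follows both the number of neurons that chose it and the RNA each of them holds, and fewer cells of a type and less RNA per cell cannot be told apart in these bulk samples.

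The mice carried S100a5-tauGFP, a reporter in which the S100a5 gene, whose transcription follows the neuron's own activity, drives a green fluorescent protein. The 4 groups, of 4 arrays each, were GFP+ cells of mice given octanoic acid, GFP- cells of the same octanoic acid mice, GFP+ cells of mice given clean air as the vehicle, and GFP- cells of the same clean air mice. All 24 mice, of both sexes and 7 to 12 weeks old, stayed singly in chambers for 40 h at 3.1 L of air per min, and from 26 h on received octanoic acid, an 8-carbon fatty acid odorant, or vehicle for 10 s every 20 min. Each pool joined 3 mice. Both sorted samples of a replicate number were taken to come from the same animals, since 24 mice in pools of 3 give 8 pools. The reporter marks a cell by S100a5 activity and not by a response to a known odorant, and GFP- cells hold every other cell that the dissociated mucosa released. Values are log2 array signals as deposited, and an enrichment is log2 GFP+ minus log2 GFP- of the same pool, given with its SD over 4 pools.

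The sort and the arrays were checked first. S100a5 itself averaged 16.60 ± 0.34 log2 in GFP+ and 15.07 ± 0.32 in GFP- cells with octanoic acid, and 16.45 ± 0.23 in GFP+ and 15.13 ± 0.18 in GFP- cells with clean air (SD, n = 4 each). Omp, the marker of mature olfactory neurons, did not pass the test between GFP+ and GFP- cells in either treatment (differences of 0.17 ± 0.10 with octanoic acid and 0.13 ± 0.17 with clean air). It read 18.47 to 18.89 log2 on single arrays, where the highest signal of all probe sets was 19.5. Of 10 mature neuron markers, Omp among them, 1 (Ano2) was higher in GFP+ cells and none lower in each treatment. The median difference of the 10 was 0.23 log2 in both. All 5 immature neuron markers, all 4 progenitor markers measured, all 4 microvillous and tuft cell markers and all 6 leukocyte markers were lower in GFP+ cells in both treatments. So were 3 of 4 Bowman gland markers (Sox9, Ltf and Bpifb3), 2 of 6 sustentacular markers (Sult1c1 and Notch2) and 1 of 3 glia markers measured (Apoe). The mean log2 signal of the leukocyte list on single arrays was 7.06 to 8.35 in GFP+ and 13.3 to 15.2 in GFP- cells with octanoic acid, and 6.57 to 7.90 in GFP+ and 13.1 to 14.5 in GFP- cells with clean air. The part of these other cells in the receptor differences was not tested. The background, the median of 5222 negative-control probe sets, was 6.20 log2, and 33 of the 36 receptors (91.7%) had a mean above it, against 87.3% of the 1044 receptors on other chromosomes. The 95th percentile of the controls was 10.4 log2, and 11 of the 36 receptors had a mean above that, so a signal above the median of the controls is not proof of expression.

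The sequences below show 2 groups of close relatives within MOR182, the first of them with enrichments of opposite sign. Olfr201, Olfr202 and Olfr198 are MOR182 genes, Olfr201 and Olfr202 next to each other in map order, and the first 50 coding bases are given from the start codon on, 5′ to 3′, from RefSeq on GRCm38.p6. Capitals mark bases that differ from Olfr202, base by base without gaps. All 3 stretches are on the minus strand, at chr16:59284446-59284495 for Olfr202, chr16:59269616-59269665 for Olfr201 and chr16:59202375-59202424 for Olfr198.
Olfr202: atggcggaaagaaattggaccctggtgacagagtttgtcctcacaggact
Olfr201: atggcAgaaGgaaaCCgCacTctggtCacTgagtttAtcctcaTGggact
Olfr198: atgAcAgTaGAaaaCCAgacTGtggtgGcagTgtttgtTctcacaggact
Olfr201 differs from Olfr202 at 11 of the 50 bases and Olfr198 differs at 13. A second pair of the same family, Olfr203 and Olfr209, is the closest of all pairs compared over these bases, with 88% identity. Pairs among the MOR182 genes Olfr194, Olfr203, Olfr205 and Olfr209 had 76% to 88% identity, against 78% for Olfr201 and Olfr202. Olfr194, Olfr203, Olfr205 and Olfr209 each had a positive mean enrichment in both treatments, so the closest relatives did not differ in sign. Most pairs were far less alike in this comparison without gaps, in which a shifted start codon lowers the value: the median was 34% over 27 pairs of one family and 36% over 144 pairs of different families. Capitals now mark bases that differ from Olfr203, which lies on the plus strand at chr16:59303155-59303204. Olfr209 lies on the minus strand at chr16:59362167-59362216.
Olfr203: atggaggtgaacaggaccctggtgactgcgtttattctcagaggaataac
Olfr209: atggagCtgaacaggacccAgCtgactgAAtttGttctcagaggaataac
Olfr209 differs from Olfr203 at 6 of the 50 bases. Probe sets of such close relatives could share target RNA, and how far they did was not tested.

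Upstream windows were compared for Olfr175 and Olfr180, both of MOR184, which had enrichments of opposite sign. The 250 bases before the start of the gene model are given 5′ to 3′ for Olfr180 (minus strand, chr16:58918487-58918736, GRCm38.p6) and Olfr175 (minus strand, chr16:58826762-58827011, GRCm38.p6). Capitals mark matches of 3 motifs searched on both strands: TATAAA, the TATA box core; TAATTA, a core of homeodomain sites such as those of Lhx2; and an Olf/Ebf core of TCCC, any 2 bases and GGGA.
Olfr180: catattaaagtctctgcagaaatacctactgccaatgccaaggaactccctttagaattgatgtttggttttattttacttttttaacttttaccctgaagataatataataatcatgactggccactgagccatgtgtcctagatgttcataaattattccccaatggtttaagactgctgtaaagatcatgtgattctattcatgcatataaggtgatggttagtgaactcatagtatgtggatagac
Olfr175: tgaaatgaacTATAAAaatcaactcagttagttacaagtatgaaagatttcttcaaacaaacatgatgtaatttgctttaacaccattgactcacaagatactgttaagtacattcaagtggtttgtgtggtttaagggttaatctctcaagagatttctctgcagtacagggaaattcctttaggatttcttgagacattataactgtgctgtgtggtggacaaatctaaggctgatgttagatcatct
The Olfr175 window held 1 TATAAA and the Olfr180 window held none of the 3 motifs. Of the 36 receptors 29 had a window, and 19 of these 29 gene models began at the start codon, so that a window there need not lie before the start of transcription. For the counts, each window was searched together with the bases just after the start of the gene model. TATAAA was found in 13 of 29 windows so extended (44.8%), against 41.3% of 892 receptors on other chromosomes and 15.7% of 27025 genes. The Olfr181 match, counted among the 13, began at -4 and ran past the start of the gene model. TAATTA was found in 4 of 29 (13.8%), against 18.7% of those receptors and 6.12% of those genes. The Olf/Ebf core was found in 0 of 29, against 0.561% and 1.06%. TAATTA and the Olf/Ebf core read the same on both strands, and no match of one motif overlapped a match of another.

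With octanoic acid, the comparison of GFP+ with GFP- cells asks which receptors the reporter marks while the odorant is present. Most chromosome 16 receptors that passed the test were higher in GFP+ cells: 20 of 36 were higher (55.6%) and 5 were lower (13.9%) in limma's test of the within-pool differences, at an adjusted p under 0.05 over all 19505 genes. Over all genes 6.26% were higher and 10.9% lower, and over the 1044 receptors on other chromosomes 35.4% were higher and 25.4% lower, 60.8% in all. The all-gene share depends on the scaling: 1221 genes were higher and 2126 lower as deposited, against 7791 and 1715 after array median centring, where 22 of the 36 were higher and 5 lower. The median enrichment of the 36 was 1.16 log2, against 0.24 for the receptors on other chromosomes and 0.11 for all genes. Single chromosomes differed: the 39 receptors with a chromosome 14 prefix had a median of 0.92 log2, with 48.7% higher and 20.5% lower. The interquartile range was -0.58 to 2.05 log2 for the 36 and -0.99 to 1.31 log2 for the other receptors. The 4 GFP+ and the 4 GFP- arrays did not overlap for 25 of the 36 (69.4%), against 17.9% of all genes and 51.9% of the other receptors.

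With clean air alone, 22 of 36 were higher in GFP+ cells (61.1%) and 5 lower (13.9%) by the same limma test. Over all genes 5.83% were higher and 9.58% lower, and over the other receptors 37% were higher and 23.7% lower, 60.6% in all. As deposited, 1138 genes were higher and 1868 lower, against 6082 and 1571 after array median centring, where 23 of the 36 were higher and 5 lower. The median enrichment of the 36 was 1.12 log2, against 0.41 for the other receptors and 0.11 for all genes. The 39 receptors with a chromosome 14 prefix had a median of 1.22 log2, with 56.4% higher and 20.5% lower. A shift of this size was therefore not particular to chromosome 16. The arrays did not overlap for 25 of the 36, against 20.5% of all genes and 56% of the other receptors. The octanoic acid and clean air enrichments share no arrays. They were tested in 1 fit, with the variance of each gene estimated over all 8 pools, so the calls of the treatments are not independent. In that fit 20 receptors were higher in both and 5 lower in both (Olfr19, Olfr180, Olfr183, Olfr195 and Olfr202). Another 2 were higher with clean air and missed the threshold with octanoic acid, and 9 passed in neither (Olfr161, Olfr164, Olfr170, Olfr172, Olfr173, Olfr177, Olfr181, Olfr190 and Olfr209). No receptor was called in opposite directions, and the mean enrichment had the same sign in both treatments for 34 of 36. Across the 36 genes, which are not independent replicates and were read on the same arrays, enrichment with octanoic acid correlated with enrichment with clean air at 0.981 (Pearson) and 0.959 (Spearman).

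**Figure D1:**
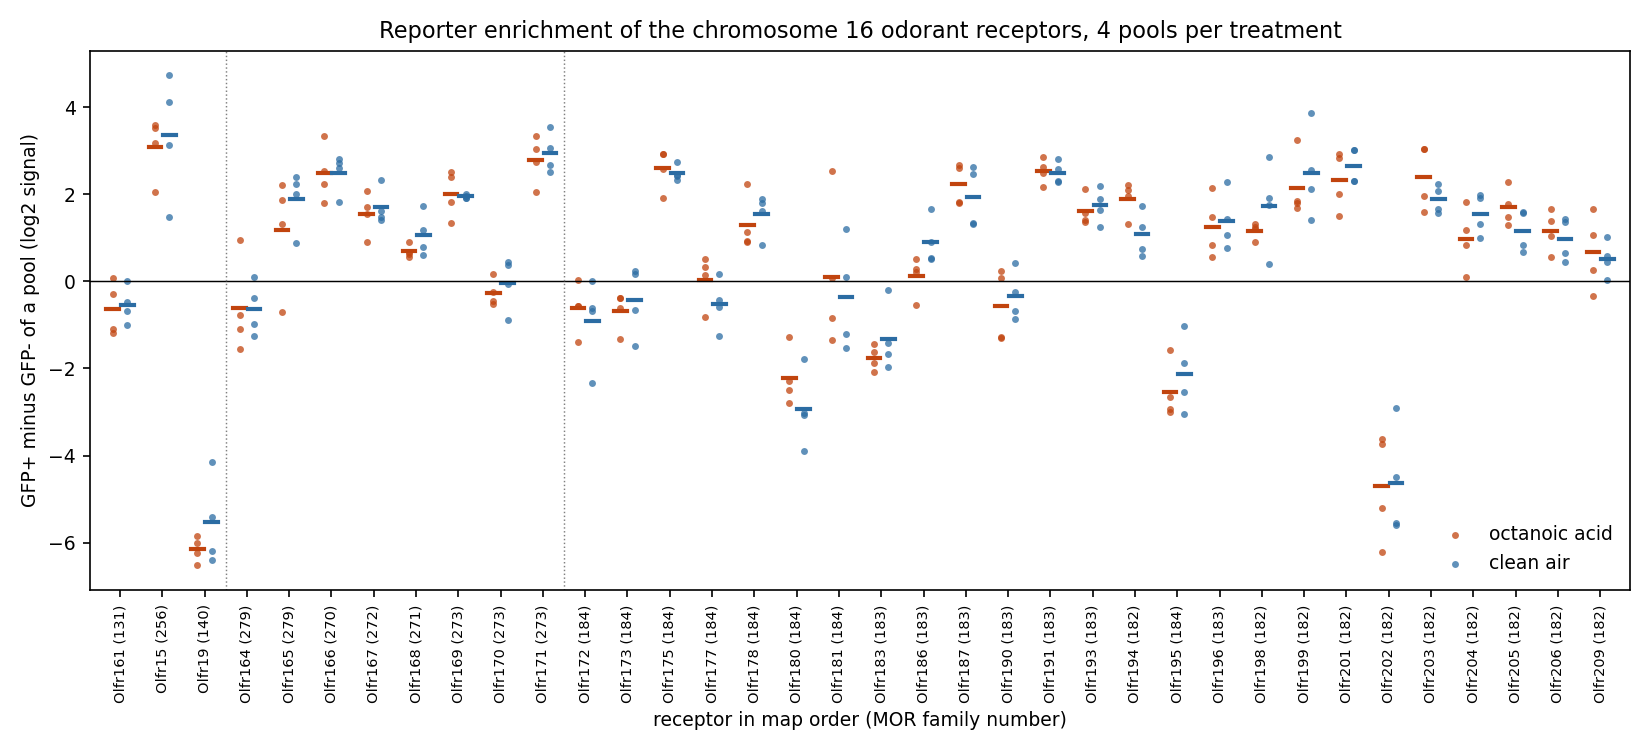
Enrichment of each of the 36 receptors (log2 GFP+ minus log2 GFP-) in map order, with octanoic acid and with clean air; points are single pools, short bars the mean of 4 pools, dotted lines part the single genes and the 2 runs, and MOR family numbers stand in brackets. Olfr19 and Olfr202 lie far below 0 in every pool of both treatments.

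The single genes held both the highest and the lowest enrichment of the chromosome. Olfr15, also named OR3 and MOR256-17, had 15.53, 14.44, 13.48 and 14.62 log2 in GFP+ cells, against 11.93, 10.92, 11.43 and 11.45 log2 in GFP- cells with octanoic acid. With clean air it had 15.14, 14.70, 13.05 and 14.78 log2 in GFP+ cells and 10.40, 11.56, 11.57 and 10.66 log2 in GFP- cells. All 8 GFP+ arrays lay above all 8 GFP- arrays, and pool 3 was the lowest of the GFP+ arrays in both treatments. The mean difference was 3.08 ± 0.71 log2 with octanoic acid (8.48-fold higher, limma adjusted p = 2.98e-04) and 3.37 ± 1.42 log2 with clean air (10.3-fold higher, limma adjusted p = 1.62e-04).

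Olfr19, of MOR140, showed the reverse. With octanoic acid it had 6.17, 5.08, 5.99 and 5.44 log2 in GFP+ cells and 12.18, 11.59, 12.23 and 11.28 log2 in GFP- cells. With clean air it had 6.26, 5.96, 5.64 and 6.40 log2 in GFP+ cells and 12.45, 11.37, 12.04 and 10.55 log2 in GFP- cells. The GFP+ arrays sat at the background and every GFP- array far above it. The difference was -6.16 ± 0.29 log2 with octanoic acid (at least 49.3-fold lower, adjusted p = 8.78e-08) and -5.54 ± 1.02 log2 with clean air (at least 40.4-fold lower, adjusted p = 2.05e-07). Here and below, "at least" marks folds whose dimmer group had a mean under the background, or over it by no more than 1 SD, and whose arrays were raised to the background where they lay under it. Olfr161, of MOR131, lay near the background on all arrays and passed in neither treatment, though it passed with octanoic acid without odor pool 4 (-0.86 log2, adjusted p = 0.0412). It had 5.68, 5.67, 6.23 and 6.12 log2 in GFP+ cells and 5.97, 6.76, 7.42 and 6.04 log2 in GFP- cells with octanoic acid, and 4.92, 5.33, 5.95 and 5.46 log2 in GFP+ cells and 5.92, 6.01, 6.42 and 5.45 log2 in GFP- cells with clean air.

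In the run from Olfr164 to Olfr171, GFP+ cells were higher for 5 of 8 receptors with octanoic acid and for 6 of 8 with clean air, and lower for none in either. The median enrichment of the 8 was 1.36 log2 with octanoic acid and 1.79 with clean air. Olfr171, of MOR273, had the largest rise in the run, with 13.52, 12.14, 11.84 and 13.25 log2 in GFP+ cells and 10.49, 9.40, 9.79 and 9.92 log2 in GFP- cells with octanoic acid. With clean air it had 12.87, 13.18, 12.58 and 12.64 log2 in GFP+ cells and 10.20, 10.11, 10.06 and 9.09 log2 in GFP- cells. No GFP- array reached a GFP+ array. The rise was 2.79 ± 0.55 log2 with octanoic acid (6.92-fold higher, adjusted p = 3.61e-06) and 2.95 ± 0.46 log2 with clean air (7.74-fold higher, adjusted p = 2.65e-06). Its relatives Olfr169 and Olfr170 differed from one another: Olfr169 was higher by 2.01 ± 0.55 log2 with octanoic acid and 1.95 ± 0.05 log2 with clean air, while Olfr170 had -0.26 ± 0.31 and -0.03 ± 0.61 log2 and passed in neither.

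Olfr166, of MOR270, had the highest mean signal of the 36 probe sets, with 14.85, 15.17, 15.27 and 15.20 log2 in GFP+ and 13.05, 11.83, 13.04 and 12.67 log2 in GFP- cells with octanoic acid. With clean air it had 14.95, 15.97, 15.54 and 15.62 log2 in GFP+ and 13.12, 13.25, 12.94 and 12.81 log2 in GFP- cells. It was higher in GFP+ cells by 2.48 ± 0.65 log2 with octanoic acid (5.57-fold) and 2.49 ± 0.45 log2 with clean air (5.62-fold). A high signal did not go with a large enrichment in Olfr168, of MOR271, which had 13.73, 13.94, 13.65 and 13.54 log2 in GFP+ and 13.16, 13.04, 13.02 and 12.87 log2 in GFP- cells with octanoic acid. With clean air it had 13.49, 14.65, 13.83 and 13.80 log2 in GFP+ and 12.70, 13.47, 13.23 and 12.07 log2 in GFP- cells. Its rise was 0.69 ± 0.14 log2 with octanoic acid (1.61-fold, adjusted p = 0.0246) and 1.07 ± 0.50 log2 with clean air (2.11-fold, adjusted p = 0.00164). The call with octanoic acid ended without any 1 of the 4 odor pools, at adjusted p = 0.0562 without pool 1, 0.0753 without pool 2, 0.0579 without pool 3 and 0.0775 without pool 4, while the difference stayed at 0.62 to 0.73 log2. Olfr167, of MOR272, was higher by 1.56 ± 0.50 log2 with octanoic acid and 1.70 ± 0.42 log2 with clean air.

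The MOR279 pair was split. Olfr165 was higher by 1.88 ± 0.68 log2 with clean air (3.68-fold, adjusted p = 0.00681), and with octanoic acid its difference of 1.17 ± 1.31 log2 missed the threshold (adjusted p = 0.0699). It passed with octanoic acid without odor pool 3, at 1.80 log2 (adjusted p = 0.00136); in that pool its GFP+ array read 10.89 and its GFP- array 11.60 log2. Olfr164 had differences of -0.62 ± 1.09 log2 with octanoic acid and -0.63 ± 0.61 log2 with clean air and passed in neither. Without odor pool 2 it was at -1.14 log2 with octanoic acid and passed (adjusted p = 0.0137).

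**Figure D2:**
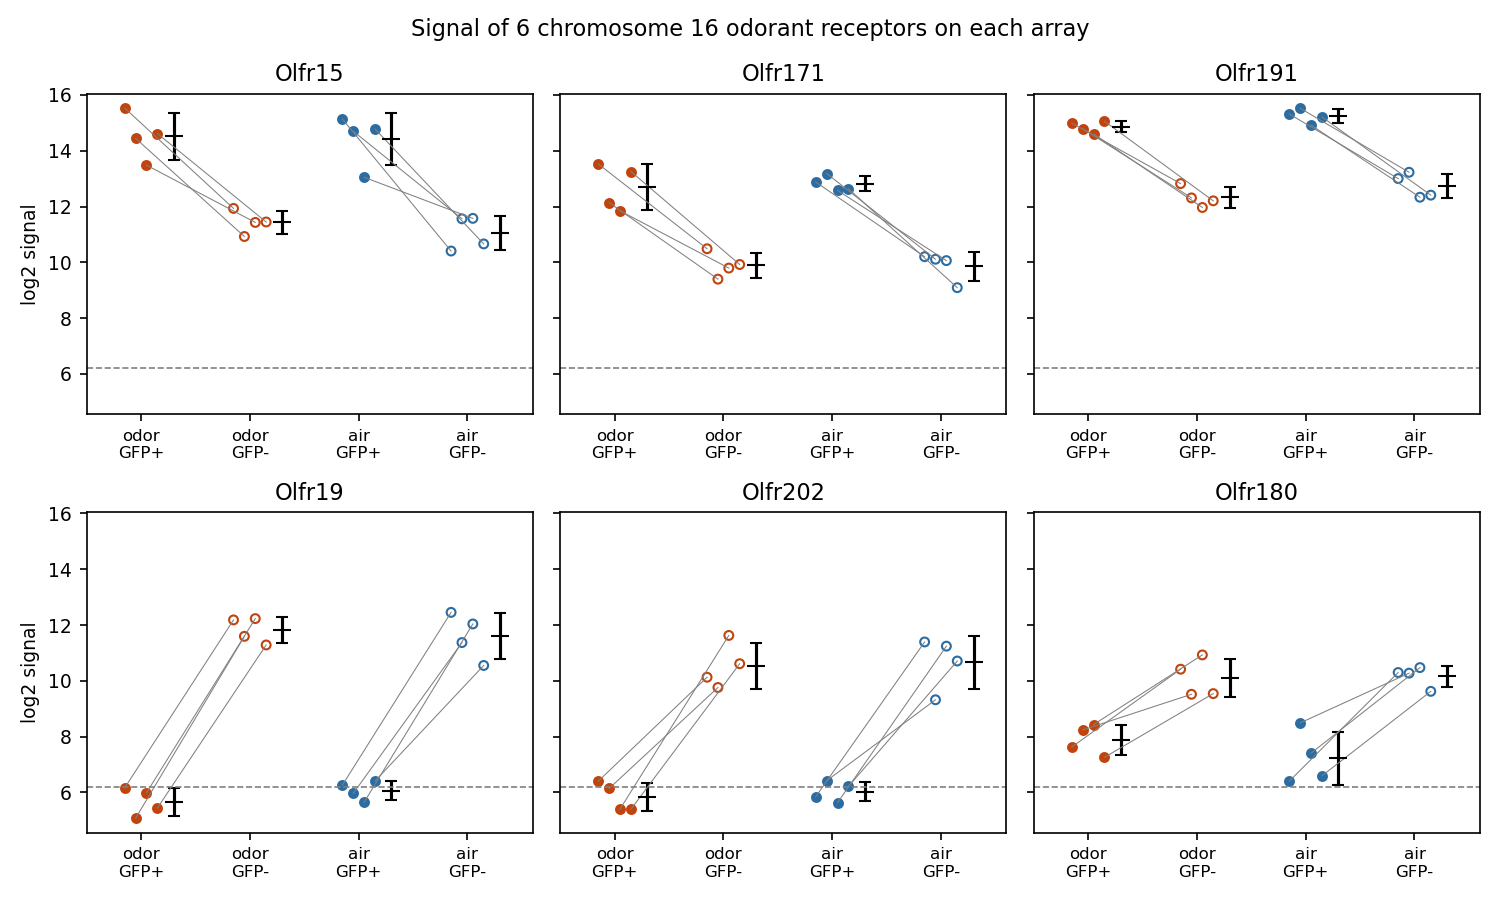
Log2 signal of 6 chromosome 16 receptors on all 16 arrays, with GFP+ to the left of GFP- and octanoic acid to the left of clean air; points are arrays, lines join the sorted samples of a pool, black bars are the mean and SD of 4 arrays, and the dashed line is the background at 6.20 log2. Olfr15, Olfr171 and Olfr191 are higher in GFP+ cells of every pool, and Olfr19, Olfr202 and Olfr180 lower.

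In the run from Olfr172 to Olfr209, the octanoic acid pools gave 14 of 25 receptors higher and 4 lower in GFP+ cells, and the clean air pools 15 higher and 4 lower. The median enrichment was 1.16 log2 with octanoic acid and 1.08 with clean air. MOR184 stood lowest of its 3 families, with 2 higher and 2 lower of 8 in both treatments and medians of -0.29 and -0.48 log2. MOR183 had 4 higher and 1 lower of 7 with octanoic acid (median 1.25) and 5 higher and 1 lower with clean air (median 1.38). MOR182 had 8 higher and 1 lower of 10 in both (medians 1.44 and 1.36). These family differences were not tested.

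In MOR184, Olfr175 and Olfr178 were higher and Olfr180 and Olfr195 lower. Olfr175 had 11.51, 11.03, 11.16 and 10.79 log2 in GFP+ and 8.93, 8.10, 9.24 and 7.86 log2 in GFP- cells with octanoic acid, and 11.26, 11.86, 10.57 and 10.54 log2 in GFP+ and 8.93, 9.12, 8.12 and 8.12 log2 in GFP- cells with clean air. Every GFP+ array lay above every GFP- array. The rise was 2.59 ± 0.48 log2 with octanoic acid (6.03-fold, adjusted p = 1.32e-06) and 2.49 ± 0.18 log2 with clean air (5.60-fold, adjusted p = 2.03e-06).

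Olfr180 had 7.63, 8.24, 8.43 and 7.26 log2 in GFP+ and 10.42, 9.52, 10.93 and 9.54 log2 in GFP- cells with octanoic acid, and 6.41, 8.49, 7.41 and 6.60 log2 in GFP+ and 10.30, 10.27, 10.47 and 9.62 log2 in GFP- cells with clean air. Its GFP+ arrays lay lower but above the background in both treatments. The difference was -2.21 ± 0.66 log2 with octanoic acid (4.63-fold lower, adjusted p = 3.03e-04) and -2.94 ± 0.87 log2 with clean air (7.67-fold lower, adjusted p = 3.42e-05). The upstream windows of Olfr175 and Olfr180, taken with the next 50 bases, were 34.7% identical at the best of the shifts tried without gaps. Among windows whose gene model did not begin at the start codon, the median was 33.8% over 16 pairs of one family. It was 32.9% over 29 pairs of different families. No value here links those bases to the sign of the enrichment.

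Olfr195 had 7.44, 8.55, 7.33 and 7.31 log2 in GFP+ and 10.45, 10.14, 10.26 and 9.97 log2 in GFP- cells with octanoic acid, and 8.57, 8.18, 8.94 and 6.66 log2 in GFP+ and 10.44, 10.72, 9.97 and 9.70 log2 in GFP- cells with clean air. GFP+ cells were the lower ones in all 8 pools. The difference was -2.54 ± 0.66 log2 with octanoic acid (5.83-fold lower, adjusted p = 1.00e-04) and -2.12 ± 0.87 log2 with clean air (4.35-fold lower, adjusted p = 4.64e-04). Olfr178 was higher by 1.30 ± 0.63 log2 with octanoic acid and by 1.54 ± 0.49 log2 with clean air. Olfr172, Olfr173, Olfr177 and Olfr181 passed in neither treatment, with means from -0.90 to 0.11 log2. Of these, Olfr172 lay at the background and passed with clean air without vehicle pool 2 (-1.21 log2, adjusted p = 0.0482), and Olfr181 had the widest spread of the 36 with octanoic acid (SD 1.72 log2, and 1.26 with clean air).

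In MOR183, Olfr191 had among the highest signals of the 36 probe sets and one of the steadiest differences. It had 14.99, 14.79, 14.60 and 15.06 log2 in GFP+ and 12.82, 12.31, 11.96 and 12.20 log2 in GFP- cells with octanoic acid, and 15.31, 15.52, 14.92 and 15.21 log2 in GFP+ and 13.00, 13.23, 12.33 and 12.41 log2 in GFP- cells with clean air. The GFP+ and GFP- arrays were far apart in both treatments. The rise was 2.53 ± 0.29 log2 with octanoic acid (5.79-fold, adjusted p = 5.49e-07) and 2.50 ± 0.24 log2 with clean air (5.65-fold, adjusted p = 6.62e-07). Olfr187 was higher by 2.23 ± 0.47 log2 with octanoic acid (at least 4.14-fold) and 1.94 ± 0.71 log2 with clean air (at least 3.72-fold), since its GFP- arrays lay near the background. Olfr193, which the reference table also lists under MOR113 and which is counted here with its neighbours, was higher by 1.62 ± 0.35 and 1.75 ± 0.40 log2.

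Olfr183 was the dim one of this family. It had 5.57, 5.28, 4.50 and 4.89 log2 in GFP+ and 7.65, 6.91, 6.38 and 6.32 log2 in GFP- cells with octanoic acid, and 6.06, 5.49, 5.33 and 6.10 log2 in GFP+ and 7.74, 7.45, 6.76 and 6.31 log2 in GFP- cells with clean air. All GFP+ arrays lay under the background. It differed by -1.75 ± 0.28 log2 with octanoic acid (adjusted p = 3.41e-04), where no fold is given because the GFP- group also lay within its SD of the background, and by -1.32 ± 0.77 log2 with clean air (at least 1.82-fold lower, adjusted p = 0.00299).

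In MOR182, Olfr202 was the one receptor lower in GFP+ cells among 10. It had 6.40, 6.14, 5.40 and 5.40 log2 in GFP+ and 10.13, 9.76, 11.63 and 10.61 log2 in GFP- cells with octanoic acid, and 5.85, 6.42, 5.64 and 6.22 log2 in GFP+ and 11.39, 9.32, 11.24 and 10.71 log2 in GFP- cells with clean air. As with Olfr19, the GFP+ arrays lay at the background and the GFP- arrays well above it. The difference was -4.70 ± 1.25 log2 with octanoic acid (at least 19.4-fold lower, adjusted p = 2.32e-05) and -4.64 ± 1.26 log2 with clean air (at least 21.2-fold lower, adjusted p = 2.85e-05).

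Olfr201, its neighbour and the gene with 39 of 50 first coding bases in common, went the other way. It had 12.25, 12.30, 12.90 and 11.54 log2 in GFP+ and 9.33, 9.47, 10.89 and 10.04 log2 in GFP- cells with octanoic acid, and 11.85, 12.37, 12.51 and 11.98 log2 in GFP+ and 9.54, 9.36, 10.22 and 8.97 log2 in GFP- cells with clean air. Its groups did not overlap. The rise was 2.32 ± 0.68 log2 with octanoic acid (4.99-fold, adjusted p = 2.88e-05) and 2.66 ± 0.41 log2 with clean air (6.30-fold, adjusted p = 1.07e-05). Olfr203, on the other side of Olfr202, was higher too, by 2.40 ± 0.74 log2 with octanoic acid and 1.88 ± 0.32 log2 with clean air.

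Of the other MOR182 genes, Olfr194, Olfr198, Olfr199, Olfr204, Olfr205 and Olfr206 were higher in both treatments, by 0.98 to 2.14 log2 with octanoic acid and by 0.97 to 2.49 log2 with clean air. Some of these calls ended with 1 pool fewer. Olfr198 missed the threshold with octanoic acid without odor pool 1, 3 or 4 (adjusted p 0.0561 to 0.0664), while its difference stayed at 1.12 to 1.15 log2 against 1.16 with all pools. Olfr204 missed it without odor pool 2, 3 or 4 (adjusted p 0.0511 to 0.122), at 0.91, 1.03 and 0.70 log2 against 0.98. Olfr206 missed it with clean air without vehicle pool 1 or 4 (adjusted p = 0.0613 and 0.0704), at 0.84 and 0.82 log2 against 0.97. Olfr209, the last of the run and the close relative of Olfr203, had 8.51, 8.73, 7.69 and 7.59 log2 in GFP+ and 7.44, 7.06, 8.03 and 7.33 log2 in GFP- cells with octanoic acid, and 8.12, 8.52, 7.97 and 7.26 log2 in GFP+ and 7.69, 7.51, 7.95 and 6.68 log2 in GFP- cells with clean air. Its groups overlapped, and the differences of 0.66 ± 0.88 and 0.51 ± 0.41 log2 passed in neither treatment. Without odor pool 3 the difference with octanoic acid was 1.00 log2 and passed (adjusted p = 0.0320).

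Genes of one family lay somewhat closer in enrichment than genes of different families, as a description over pairs that share genes. The median absolute difference with octanoic acid was 1.27 log2 over 98 pairs of one family and 1.78 log2 over 532 pairs of different families, and with clean air it was 1.35 and 1.74 log2. Over the 35 pairs next to each other in map order the medians were 1.87 log2 with octanoic acid and 2.06 log2 with clean air. The enrichment of the 36 had a Pearson correlation with the mean signal of 0.459 with octanoic acid and 0.495 with clean air (Spearman 0.550 and 0.595), across probe sets whose signals are not on one scale.

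**Figure D3:**
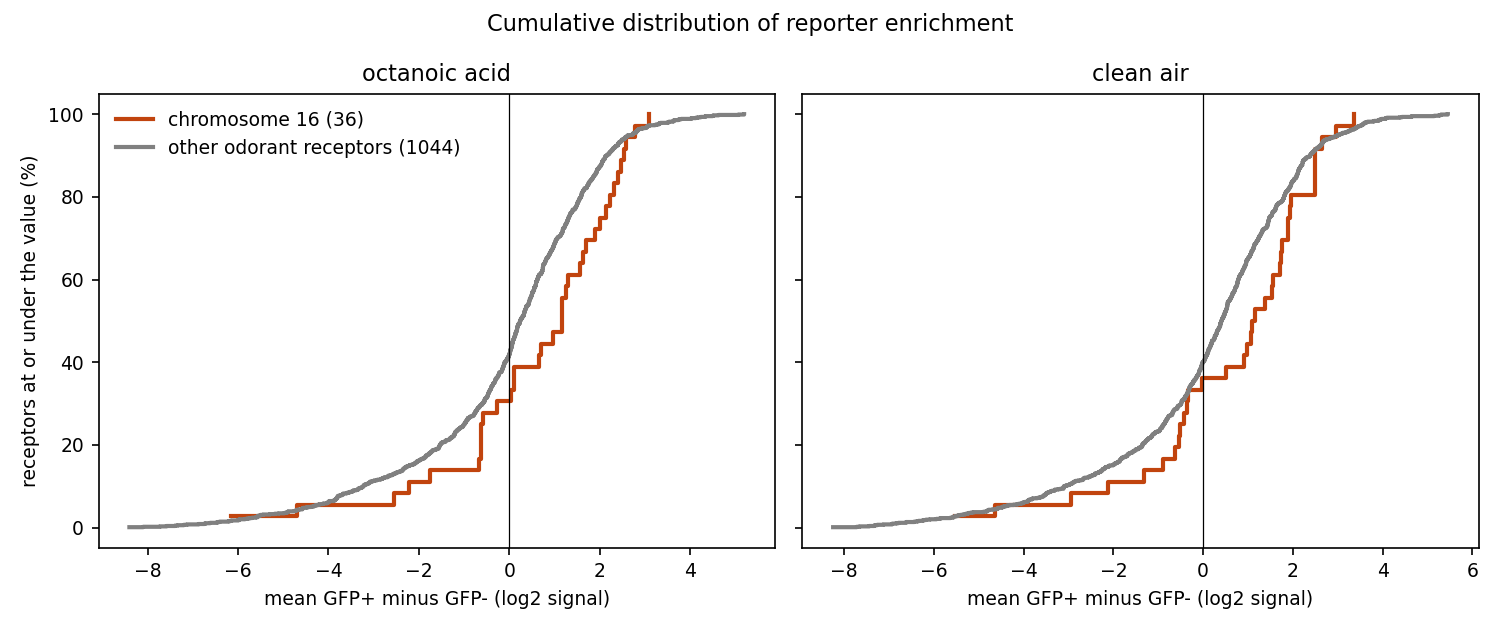
Cumulative share of receptors (y axis, percent) by mean enrichment (x axis, log2 GFP+ minus log2 GFP-) for the 36 chromosome 16 receptors and the 1044 receptors on other chromosomes, in each treatment. The median of the 36 is 1.16 log2 with octanoic acid and 1.12 with clean air, against 0.24 and 0.41 for the other receptors. The other chromosomes are pooled here, and the receptors of chromosome 14 alone had medians of 0.92 and 1.22 log2.

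Genes that serve the receptors were read on the same arrays. None of 8 genes of receptor trafficking and folding, among them Rtp1, Rtp2 and Ric8b, passed between GFP+ and GFP- cells in either treatment. Of 10 genes of receptor choice and transcription, Cbx5, a heterochromatin protein, was lower in GFP+ cells with octanoic acid (-0.68 ± 0.37 log2, adjusted p = 0.0268), and none passed with clean air. Of 13 transduction genes, 3 were higher with octanoic acid: the calcium-activated chloride channel Ano2 by 0.51 ± 0.07 log2 and the phosphodiesterases Pde1c by 0.82 ± 0.11 and Pde4a by 0.53 ± 0.27 log2. These 3 and the calcium exchanger Slc24a4 (0.87 ± 0.13 log2) were higher with clean air. In limma's test of octanoic acid minus clean air enrichment, none of these 10 or 13 genes passed (smallest adjusted p = 0.940 in each list). The calls of Cbx5 and Slc24a4 in 1 treatment were therefore not shown to differ between the treatments. Of 7 activity-dependent genes 6 were higher in both treatments, with S100a5, the reporter's own gene, higher by 1.53 ± 0.52 log2 with octanoic acid and 1.32 ± 0.22 with clean air. Kirrel3, an adhesion molecule of olfactory axons, was the one that did not pass (-0.26 ± 0.35 and -0.30 ± 0.17 log2). None of the 4 zone genes measured passed in either treatment.

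The difference of the enrichments, octanoic acid minus clean air, asks whether the enrichment of a receptor's signal in GFP+ cells changed with the odorant. Neurons that moved between the fractions and a change in receptor RNA per neuron cannot be told apart by it. No chromosome 16 receptor passed in limma's test (0 of 36; 0% of all genes), and the smallest adjusted p among the 36 was 0.940. At an unadjusted p under 0.05 there were 2 of 36 and 871 of 19505 genes. The 95% intervals of the 36 had a median half-width of 0.78 log2, 12 of them lay inside -1 to 1, and the farthest bound was 2.22 log2 (Olfr181). These intervals are not adjusted for the 19505 genes, so changes larger than their half-width could also go uncalled.

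The smallest p belonged to Olfr194, of MOR182. It had 9.90, 9.76, 9.70 and 9.87 log2 in GFP+ and 7.79, 7.55, 8.40 and 7.91 log2 in GFP- cells with octanoic acid, and 9.63, 9.44, 9.95 and 8.93 log2 in GFP+ and 8.88, 8.85, 8.21 and 7.67 log2 in GFP- cells with clean air. The arrays of the treatments overlapped in both fractions. Its enrichment was 1.90 ± 0.41 log2 with octanoic acid and 1.08 ± 0.52 log2 with clean air, a difference of 0.81 log2 (95% interval 0.15 to 1.48, limma unadjusted p = 0.0204, adjusted p = 0.940).

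Olfr186, of MOR183, had 9.79, 9.53, 9.51 and 9.41 log2 in GFP+ and 10.33, 9.02, 9.30 and 9.14 log2 in GFP- cells with octanoic acid, and 9.79, 9.75, 10.22 and 9.75 log2 in GFP+ and 9.26, 8.84, 9.70 and 8.09 log2 in GFP- cells with clean air. It was higher in GFP+ cells with clean air by 0.90 ± 0.54 log2 (1.87-fold, adjusted p = 0.0160) and had 0.11 ± 0.45 log2 with octanoic acid (adjusted p = 0.766). The difference between the treatments was -0.79 log2 (95% interval -1.48 to -0.10, unadjusted p = 0.0284, adjusted p = 0.940), so the 2 enrichments were not shown to differ. The call with clean air ended without vehicle pool 2 (adjusted p = 0.0583) or pool 4, at 0.65 log2 (adjusted p = 0.0975).

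Olfr205, of MOR182, had the next smallest p. It had 10.79, 10.45, 11.29 and 11.15 log2 in GFP+ and 9.32, 8.67, 9.99 and 8.87 log2 in GFP- cells with octanoic acid, and 10.35, 10.27, 11.25 and 9.85 log2 in GFP+ and 8.78, 9.60, 9.66 and 9.02 log2 in GFP- cells with clean air. Its enrichment differed by 0.54 log2 (95% interval -0.11 to 1.19, unadjusted p = 0.0954, adjusted p = 0.940).

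**Figure D4:**
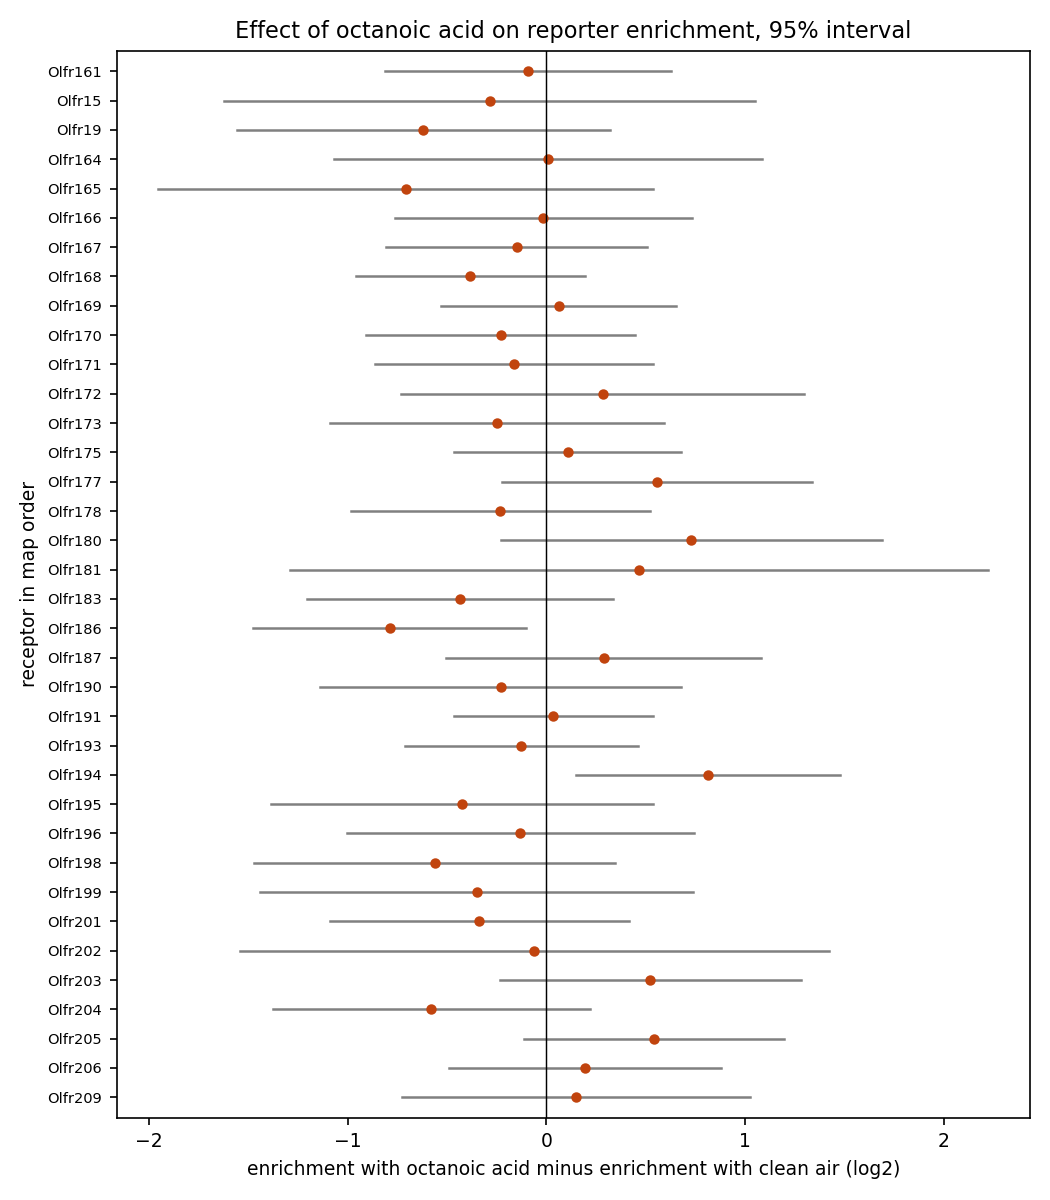
Difference in enrichment between octanoic acid and clean air (log2) for each of the 36 receptors in map order, with its 95% interval from limma over 8 pools. The means lie between -0.79 and 0.81 log2, and no receptor passed the adjusted test.

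The GFP+ cells of the 2 treatments were also set against each other directly. No receptor of the 36 passed (0 of 36; 0% of all genes), with 2 of 36 and 716 of 19505 genes at an unadjusted p under 0.05, and the smallest adjusted p was 0.955. Olfr183, printed above with all its GFP+ arrays under the background, was at -0.68 log2 (95% interval -1.27 to -0.10, unadjusted p = 0.0266). Olfr196, of MOR183, had 9.36, 9.45, 8.76 and 8.72 log2 in GFP+ and 7.89, 7.30, 7.93 and 8.16 log2 in GFP- cells with octanoic acid, and 9.36, 9.71, 9.74 and 9.39 log2 in GFP+ and 8.61, 8.64, 8.30 and 7.11 log2 in GFP- cells with clean air. Its GFP+ cells differed by -0.48 log2 between the treatments (95% interval -0.95 to -0.01, unadjusted p = 0.0465), while its enrichment was 1.25 ± 0.71 log2 with octanoic acid and 1.38 ± 0.65 log2 with clean air, both called. The median half-width of the intervals was 0.60 log2, and 26 of 36 lay inside -1 to 1.

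In the GFP- cells no receptor passed either (0 of 36; 0% of all genes), and none had an unadjusted p under 0.05, against 741 of 19505 genes. The smallest p belonged to Olfr190, of MOR183. It had 9.35, 6.87, 7.49 and 8.75 log2 in GFP+ and 9.12, 8.15, 8.80 and 8.67 log2 in GFP- cells with octanoic acid, and 9.72, 8.41, 8.60 and 8.42 log2 in GFP+ and 9.30, 9.28, 9.27 and 8.66 log2 in GFP- cells with clean air. The groups overlapped, and the difference in GFP- cells was -0.44 log2 (95% interval -0.95 to 0.07, unadjusted p = 0.0817). Olfr161 was at 0.60 log2 (95% interval -0.10 to 1.30, unadjusted p = 0.0863). The median half-width was 0.69 log2, and 20 of 36 intervals lay inside -1 to 1. In neither fraction did the 4 octanoic acid and the 4 clean air arrays lie apart for any of the 36, against 2.29% of all genes and 0.862% of the receptors on other chromosomes in GFP+ cells. In GFP- cells the background was 2.27% of all genes and 1.25% of those receptors.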

How the data were processed

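The authors deposited 1 log2 signal for each probe set on each array, from Affymetrix Expression Console per the submitters' processing notes. Its version, the background step, the summary method and the genome build are not given in the sources used here. That the scale is log2 follows from the range of the values (2.13 to 19.5, array medians 6.76 to 7.10). The 16 Clariom S arrays stand for 8 pools of 3 mice, and 50 to 100 ng of RNA was labelled per sample. Precision is limited by the 4 pools of each treatment, since an array has no read depth.

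Of 28846 probe sets, 19572 carry 1 gene symbol. For genes with several, the brightest was used (67 others dropped), so that 19505 genes were tested. Each pool's log2 GFP+ minus log2 GFP- was tested with limma 3.58.1 in R 4.3.3 (lmFit, eBayes, two-sided): the mean of each treatment against 0, and octanoic acid minus clean air. GFP+ and GFP- arrays were also compared between treatments. Benjamini-Hochberg adjustment ran over all genes, with 0.05 as the threshold. The procedure was tested on simulated data.

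By the mouse numbers in the labels, the GFP+ and GFP- samples of a pool were taken to share their 3 mice. Their deviations from the group means correlated at 0.389, -0.238, 0.357 and 0.0972 in the odor pools. In the vehicle pools the values were 0.251, 0.152, 0.0742 and 0.226, so not every pool reached the limit of 0.1 used below. The labels also number odor and vehicle pools alike. Deviations from the group means of like-numbered pools correlated at 0.179, 0.110, 0.237 and 0.100 for the differences (the lowest just over the limit of 0.1), at 0.371, 0.100, 0.219 and 0.138 in GFP+ cells (also just over it), and at 0.408, 0.100, -0.0986 and 0.153 in GFP- cells, which do not reach it.

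RefSeq's gene table for GRCm38.p6 gave MOR names and gene order for all 36 receptors, and its promoter table the sequences. The members and the gene lists were chosen with earlier results of these data known. Values on every array are given for the 4 largest rises and falls in each enrichment, the smallest p of each treatment comparison (3 for the odor effect, 2 in each fraction), the 3 brightest receptors, and the first and last by number. Protein identity, which was to name further pairs, was not analysed here. The coding starts and the upstream windows shown were chosen after the values were seen. Alternatives were other scalings, a background filter, the mean of probe sets, a variance trend and pools left out. Others were a fit without the pairing of GFP+ and GFP- arrays, a replicate block joining like-numbered odor and vehicle pools, and only the pools of 1 treatment. No column was left unused.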

Additional observations from a re-analysis of the deposited data

Results flagged for a closer look

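Among 144 sets of 4 arrays (36 receptors in 4 groups), 12 held an array whose gap to the nearest other, divided by the range of the 4, was above Dixon's 95% critical value, where chance gives about 1 in 20. Low values on the GFP- array of clean air pool 4 made up 5 of the 12: Olfr164 at 10.06 log2 (others 11.20 to 11.42), Olfr171 at 9.09 (10.06 to 10.20), Olfr177 at 9.37 (10.20 to 10.30), Olfr190 at 8.66 (9.27 to 9.30) and Olfr198 at 7.25 (8.75 to 8.94). That array had the highest background of the 16 (6.77 log2) and the lowest median of the receptors on other chromosomes (8.27). Its part in these values was not tested. Of the others in clean air, Olfr190 was high in GFP+ cells of pool 1 at 9.72 log2 (8.41 to 8.60), and Olfr186 and Olfr203 were high in GFP+ cells of pool 3, at 10.22 (9.75 to 9.79) and 9.85 (9.11 to 9.19). With octanoic acid, Olfr195 was high in GFP+ cells of pool 2 at 8.55 log2 (7.31 to 7.44) and Olfr193 in GFP+ cells of pool 4 at 13.77 (13.33 to 13.39). In GFP- cells of octanoic acid pool 1, Olfr187 was high at 7.64 (5.78 to 6.06) and Olfr170 at 10.76 (10.11 to 10.16).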

How the results depend on the processing

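No count of called receptors moved by over 1.5 times. The largest rises and falls (Olfr15, Olfr171, Olfr175, Olfr191, Olfr201, Olfr19, Olfr202, Olfr195 and Olfr180) kept their sign and their call in both treatments under every alternative run, while 10 other receptors gained or lost a call under at least 1. Leaving out 1 pool at a time gave 17 to 20 higher and 5 to 6 lower with octanoic acid and 20 to 22 higher and 5 to 6 lower with clean air. Without odor pool 3 and vehicle pool 4 together there were 20 and 21 higher and 5 lower in each. The fit without the pairing of GFP+ and GFP- arrays within pools gave 18 higher with octanoic acid and 21 with clean air. Among genes with a mean above background, 33 of the 36 were tested and 4 were lower, since Olfr183 was left out. The replicate block pairing odor and vehicle numbers changed no call (0 called, smallest adjusted p among the 36 of 0.781 for the odor effect, 0.826 in GFP+ and 0.915 in GFP- cells). Scaling moved the median of all genes, from 0.11 log2 in both treatments as deposited to 0.42 with octanoic acid and 0.38 with clean air by array median centring, to 0.15 and 0.13 by quantile normalization, and to 0.21 and -0.05 by centring on the receptors. The 36 then had medians of 1.47 and 1.39, 1.31 and 1.17, and 1.26 and 0.96, with 21 to 23 higher and 5 lower. Genes of the whole array called higher numbered 1221 with octanoic acid and 1138 with clean air as deposited, 7791 and 6082 by array median centring, 2587 and 1813 by quantile normalization, and 763 and 507 by receptor centring. They numbered 621 to 1310 and 619 to 1282 with 1 pool left out. Under these scalings Olfr165 passed with octanoic acid (adjusted p 0.0141 to 0.0353), and Olfr209 passed with octanoic acid under array median centring and quantile normalization and with clean air under array median centring. Without the pairing within pools, Olfr168 and Olfr204 missed the threshold with octanoic acid and Olfr186 missed it with clean air. With 4 pools a treatment, the 95% intervals of the odor effect in the 36 had a median half-width of 0.78 log2, before any adjustment. After adjustment no gene was called, although the differences of all genes ran from -1.83 to 1.57 log2. Changes in the 36 well above that half-width could therefore have been missed.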
